A study of Mus musculus with 24 samples.

Results

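Among single haematopoietic stem cells (HSCs) sorted from mouse bone marrow, the cells brightest in the phycoerythrin (PE) channel of the cytometer were set against the dimmest. PE is a fluorescent dye that is usually carried by an antibody. The record of the sort names the dye only. The antibody is not known from the sources at hand, so no surface protein is assigned to it. Within each of 4 sort plates (numbered 2, 3, 4 and 5) the 20% of cells with the highest PE value formed the PE high side, the 20% with the lowest formed the PE low side, and the remaining cells formed the middle. Of 1430 recorded cells, 1373 could be ranked, which gave 274 PE high, 274 PE low and 825 middle cells. The 57 cells left out were 47 wells whose PE entry is a spreadsheet error and 10 cells of map group 1, described below. The PE brightness of the 47 error wells is not known, so the low side is the lowest 20% of readable values.

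The mice carried -60/DR5-TA-RA-CFP, a cyan fluorescent protein (CFP) reporter that responds to retinoic acid, and every cell was gated as LSK (lineage-negative, Sca-1 positive, Kit positive), CD150+ and CD48-. Both sides therefore shared the reporter, the gate and the plates, and were separated by PE brightness within a plate. Cells were index sorted, so the cytometer's values are tied to the well of each cell. Messenger RNA was captured on barcoded poly(T) primers and counted as unique molecular identifiers (UMIs), each of which stands for 1 captured transcript.

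HSCs sit at the top of blood formation and are mostly out of the cell cycle. When they enter it, they first induce the DNA replication machinery and histone genes of S phase, and then the tubulins, kinesins, condensins and mitotic kinase regulators of G2 and M phase. Genes such as Mecom, Vwf and Procr mark the most dormant and long-lived HSCs in mouse marrow.

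PE channel numbers spread without a sharp edge. The lowest value of a plate lay between 5 and 16 and the highest between 549 and 752. By contrast the lowest APC value was 379 or 380 in every plate, the lowest Alexa Fluor 700 value 293 or 294, and the lowest APC-Alexa Fluor 750 value 439 to 441, and no PE-Cy7 value exceeded 412. The median PE channel number of the low side was 166, 154, 154 and 142 in plates 2 to 5, and that of the high side 322, 335, 326 and 325. Cells just inside the low side had channel numbers of 195, 186, 182 and 173 and those just outside 196, 187, 182 and 173. On the high side the last cells inside had 301, 305, 300 and 287, and the first outside 300, 304, 299 and 286. Both cuts thus fell within a continuous range.

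UMIs summed over the cells of a side gave 102151 to 128704 per plate on the high side, 82171 to 98748 on the low side and 279718 to 314822 in the middle, so the low libraries were the shallowest. The median ranked cell had 1266 UMIs and 822 genes. Defining HSC genes were detected in the ranked cells (Gata2 in 576 cells, Hlf in 497, Kit in 435, Mecom in 179), whereas Slamf1 and Ly6a, which encode the gate's CD150 and Sca-1, had only 35 and 87 UMIs. Plate 2 stood apart. In it 104 of the 3074 tested genes were at least 4-fold below each of the other plates, against 0 genes in any other plate, and Rpl23, for example, had 209 CPM (UMI counts scaled to a common library total) in plate 2 and 3495 to 4200 CPM elsewhere. Of the genes that differed between the sides, 5 were among these 104 (Lst1, Ifitm1, Ifitm3, Rpl23 and Sult1a1). Sides were cut within plates, so both sides shared this gap.

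With plate as a block, 71 of 3074 tested genes differed between PE high and PE low cells (2.31%; edgeR quasi-likelihood test, Benjamini-Hochberg adjusted p under 0.05), and 354 had an unadjusted p under 0.05. Of these, 44 were higher in PE high cells (1.43% of genes tested) and 27 lower (0.878%). Cell-cycle genes led the higher side: 19 of the 44 belong to the S phase or G2/M lists and another 7 entries are replication-dependent histones, while 0 of the 27 lower genes are in those lists. Among all 3074 tested genes, 33 are in the S phase list and 24 in the G2/M list. By p, Ifitm1, Apoe and Pdzk1ip1 led the lower genes, and 6 of the 27 are in the HSC list. The direction was the same in 4 of 4 plates for 60 of the 71 genes. All 4 high libraries lay above all 4 low libraries for 20 of the 44 higher genes, where 2.11% of all tested genes did so, and all lay below for 10 of the 27 lower genes, where 1.66% of all did so. DESeq2 called 27 of the 71, 21 higher and 6 lower. Without plate 5 the count fell to 24 genes (15 higher, 9 lower), and without the plate block to 5, all higher (Tuba1b, Hmgb2, Tubb5, Ube2c and Spc24). Leaving out any 1 of plates 2, 3 and 4 left 51 to 65 calls, and 19 of the 71 genes were called in each of the 4 fits that left out 1 plate (14 higher, 5 lower).

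**Figure D1:**
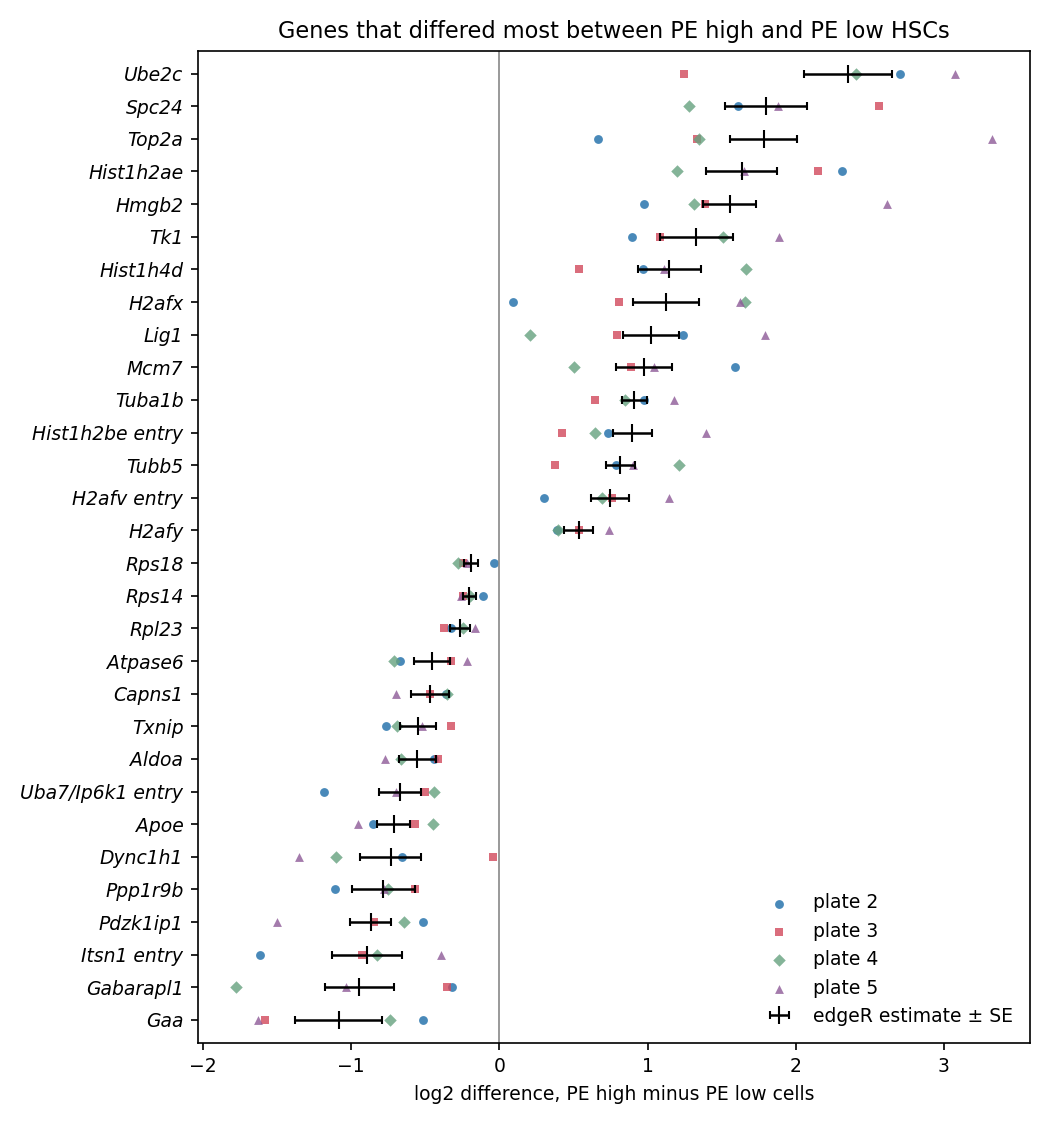
The 15 genes higher and the 15 lower in PE high cells by edgeR p, among those called with 1 sign in 4 plates. The x axis is the log2 difference of PE high minus PE low cells; coloured points are the 4 plates and black bars the edgeR estimate with its SE. Ube2c was the furthest to the right at 2.35 and Gaa the furthest to the left at -1.08.

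Of the G2/M list, 24 of 63 entries in the table passed the filter on low counts. Of these, 13 were higher in PE high cells, where 1.43% of all tested genes were, and 0 were lower. The median log2 difference was 1.02 (all tested genes -0.02). Tuba1b, an alpha tubulin of the spindle and cytoskeleton, had 1668, 1750, 1900 and 1442 CPM on the low side of plates 2 to 5 and 3277, 2733, 3419 and 3264 CPM on the high side. Every high library was above every low library, and the log2 difference was 0.91 ± 0.08 (SE; adjusted p = 3.03e-17). Hmgb2, a chromatin protein of dividing cells, had 276, 324, 383 and 153 CPM on the low side and 544, 850, 955 and 942 CPM on the high side, again without overlap (1.56 ± 0.18, adjusted p = 8.03e-12).

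Ube2c, the ubiquitin-conjugating enzyme of the anaphase-promoting complex, showed the largest fold of these. It had 43.5, 104, 88.4 and 63.8 CPM on the low side and 289.5, 248, 472 and 544 CPM on the high side, a log2 difference of 2.35 ± 0.30 (adjusted p = 2.28e-10). Its UMIs came from few cells: 150 UMIs in 42 of the 274 high cells and 22 UMIs in 13 of the 274 low cells. Top2a, the topoisomerase that untangles sister chromatids, had 58.0, 285, 265 and 89.3 CPM on the low side and 92.6, 721, 678 and 903 CPM on the high side. The high library of plate 2 fell within the low libraries, yet the direction held in each plate (1.78 ± 0.23, adjusted p = 2.76e-10). Tubb5, a beta tubulin, rose by 0.82 ± 0.10, and Spc24, a kinetochore subunit that was not in the list, by 1.80 ± 0.28, with 64.8 to 147 CPM on the low side and 313 to 387 CPM on the high side.

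Other mitotic genes that rose were Kif11, the kinesin that separates spindle poles (log2 difference 1.91), Ckap2l (1.91), the condensin subunit Ncapd2 (1.41), the mitotic regulator Cdca3 (1.40), the kinase Cdk1 (1.34), Cdca8, a subunit of the chromosomal passenger complex (1.31), the checkpoint kinase Bub1b (1.28) and Cks1b, a binding partner of cyclin-dependent kinases (0.96). Outside the list, the centromere protein Cenph (1.38) and the kinetochore protein Pmf1 (1.07) rose. None of these 10 genes was called in each of the 4 fits that left out 1 plate: Ckap2l was called in 3 and could not be tested without plate 5, and Cks1b was called in none. Not every mitotic gene passed: Plk1, the polo-like kinase, had a log2 difference of -0.02 and Birc5, or survivin, 0.57. Tubulin genes are near-identical to paralogs, and how reads shared between copies were counted is not stated, so Tuba1b and Tubb5 may include reads of their relatives. Without plate 5 the calls in the G2/M list dropped from 13 to 5.

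**Figure D2:**
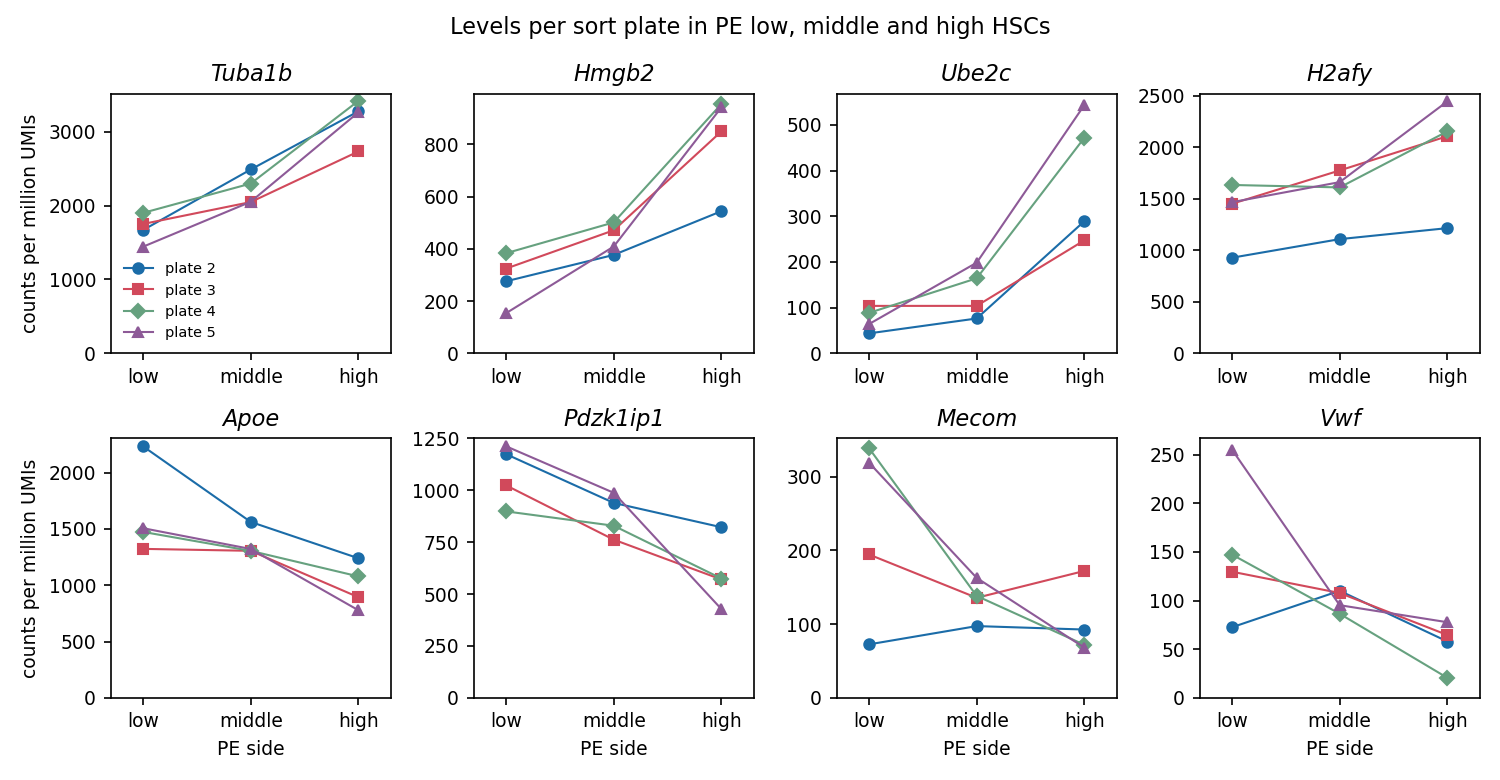
Level of 8 genes in CPM (y axis, starting at 0) on the PE low, middle and high sides (x axis), 1 line per sort plate. Tuba1b, Hmgb2, Ube2c and H2afy are higher on the high side of each plate and Apoe and Pdzk1ip1 lower, while Mecom is lower on the high side in 3 plates, with plate 2 the exception.

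Since mitotic genes rose together, their promoters were searched for the sequence elements that are known to time cell-cycle genes: the CCAAT box (CCAAT), the cell cycle genes homology region or CHR (TTTGAA or TTTAAA) and E2F sites (TTTCGCGC, TTTGGCGC, TTTCCCGC or TTTGCCGC), on both strands. The 200 bases before the first RefSeq start listed for each gene were read (build GRCm38.p6, 27025 promoters in all). CCAAT was present in 30% of all promoters, in 32.9% of the 2272 tested genes that matched by symbol, in 17 of the 31 matched higher genes (54.8%) and in 6 of the 22 matched lower genes (27.3%). The CHR letters were present in 20.2% of all promoters, 12.5% of tested genes, 12 of 31 higher genes (38.7%) and 3 of 22 lower genes (13.6%). E2F letters were present in 1.63% of all promoters, 4.09% of tested genes, 6 of 31 higher genes (19.4%) and 0 of 22 lower genes. These shares describe letters in a window, and sets that hold many genes of the G2/M list carry that list's promoters: 19 of its 21 matched members had CCAAT and 12 had the CHR letters.

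The promoters of 3 mitotic genes that rose, of the replication genes Mcm7 and Lig1, which also rose, and of Apoe, the most stable lower gene, are printed as examples of windows with and without matches, chosen after the matches were seen. Matches on either strand are in capitals, and CCAATTGG in Ube2c is 2 overlapping CCAAT matches, 1 on each strand. The windows are chr2:164769729-164769928 (plus strand) for Ube2c, chr11:99024190-99024389 (minus strand) for Top2a, chr10:69352913-69353112 (minus strand) for Cdk1, chr5:138171884-138172083 (minus strand) for Mcm7, chr7:13276975-13277174 (plus strand) for Lig1 and chr7:19699189-19699388 (minus strand) for Apoe, each written 5′ to 3′ on the gene's strand and ending at the base before the start.
Ube2c: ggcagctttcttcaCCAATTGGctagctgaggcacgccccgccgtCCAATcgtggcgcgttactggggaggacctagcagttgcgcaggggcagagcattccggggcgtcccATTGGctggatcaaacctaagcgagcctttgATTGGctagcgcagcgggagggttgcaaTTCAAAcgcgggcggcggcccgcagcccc
Top2a: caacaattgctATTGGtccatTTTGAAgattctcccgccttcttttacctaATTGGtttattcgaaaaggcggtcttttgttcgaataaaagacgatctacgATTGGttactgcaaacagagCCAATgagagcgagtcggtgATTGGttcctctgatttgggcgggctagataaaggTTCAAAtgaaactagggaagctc
Cdk1: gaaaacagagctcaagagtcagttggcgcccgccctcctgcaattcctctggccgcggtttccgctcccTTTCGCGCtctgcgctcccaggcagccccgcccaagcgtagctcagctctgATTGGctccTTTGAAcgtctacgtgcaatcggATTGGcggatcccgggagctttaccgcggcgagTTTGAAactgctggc
Mcm7: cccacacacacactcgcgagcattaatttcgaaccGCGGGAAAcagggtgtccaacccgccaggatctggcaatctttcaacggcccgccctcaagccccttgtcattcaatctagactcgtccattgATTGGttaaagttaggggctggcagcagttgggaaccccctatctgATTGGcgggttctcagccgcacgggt
Lig1: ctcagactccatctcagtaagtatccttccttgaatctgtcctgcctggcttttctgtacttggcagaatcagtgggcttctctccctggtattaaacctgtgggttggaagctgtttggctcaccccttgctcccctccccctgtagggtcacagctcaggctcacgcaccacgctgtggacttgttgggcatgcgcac
Apoe: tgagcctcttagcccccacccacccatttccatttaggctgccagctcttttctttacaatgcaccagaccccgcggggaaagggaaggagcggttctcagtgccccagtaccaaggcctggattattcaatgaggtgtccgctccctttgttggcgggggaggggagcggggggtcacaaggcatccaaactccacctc
Ube2c and Top2a each hold 5 CCAAT matches, and their last CHR match lies 29 and 23 bases before the start. Cdk1 has 2 CHR matches, at 71 and 15 bases before the start, and an E2F match. Mcm7 has an E2F match and 2 CCAAT matches, and the windows of Lig1 and Apoe hold none of the letters searched. Lig1 and Apoe have 3 starts listed each and Mcm7 has 2, and windows before the later ones were not searched. Among other replication genes that rose, the window of Rfc5 holds none either and that of Tk1 only 1 CHR match.

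Replication genes rose as well. Of 33 tested members of the S phase list, 6 were higher in PE high cells, where 1.43% of all tested genes were, and 0 lower. The median log2 difference was 0.45, and 32 of the 33 values were above 0. Lig1, the ligase that joins Okazaki fragments, had 363, 272, 383 and 204 CPM on the low side and 857, 473, 441 and 709 CPM on the high side, without overlap (1.02 ± 0.19, adjusted p = 5.37e-05). Tk1, thymidine kinase, had 130.5, 233, 133 and 115 CPM on the low side against 243, 495, 379.9 and 427 CPM (1.33 ± 0.25), and Mcm7, a subunit of the replicative helicase, 203, 272, 383 and 306 CPM against 614, 506, 544 and 631 CPM (0.98 ± 0.19). For both genes all high libraries exceeded all low ones. Dut, which clears dUTP (0.82), Rfc5 of the clamp loader (1.26) and Rpa2 of the single-strand binding complex (0.92) also rose. The other helicase subunits ranged from 0.01 for Mcm2 to 0.73 for Mcm3 and did not pass, nor did the sliding clamp Pcna (0.51). Without plate 5, Tk1 and Mcm7 were the only 2 of these 6 still called.

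The 7 replication-dependent histone entries that rose were Hist1h2ae (1.63 ± 0.24), Hist1h1d (1.34), Hist1h1a (1.19), Hist1h4d (1.15), Hist1h1b (1.08), the joint entry of Hist1h2be and Hist1h1e (0.90) and Hist1h1c (0.73). Histone genes of 1 family are alike in sequence, and those within the H2A, H2B and H4 families are near-identical. Reads can be split between copies, so these entries are uncertain as single genes. Some of their UMIs sat in few cells: 1 low cell of plate 5 held 40 of the 122 low-side UMIs of Hist1h1b. Without plate 5, Hist1h1d, Hist1h1a and Hist1h1c were not called, which left 4 of the 7. Histone variants rose too. H2afx, the variant phosphorylated at DNA breaks, had a log2 difference of 1.13 and was not called without plate 5, and the joint entry of H2afv and H2afz, both of the H2A.Z class, 0.75 ± 0.13.

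H2afy encodes macroH2A1, a variant that is not tied to S phase. It had 928, 1452, 1635 and 1468 CPM on the low side and 1216, 2109, 2156 and 2448 CPM on the high side. The high library of plate 2 lay within the range of the low ones, and the difference had the same sign in each plate (0.54 ± 0.10, adjusted p = 4.19e-05). Ssrp1, a subunit of the FACT histone chaperone, rose by 0.68, a call that was lost without plate 2, without plate 5 and with DESeq2. In a further fit, the 20% of each plate's cells with the most S phase and G2/M UMIs were left out (cycling cells left out, below). Cells were ranked for this by the count of those UMIs and not by their share, so the ranking also depends on UMIs per cell. With PE cut again in the rest, 1708 genes could be tested and 5 were called. H2afy (0.55, adjusted p = 0.00556) and Ssrp1 (1.01, adjusted p = 0.0119) were the 2 higher genes among them, and Tuba1b was no longer called (0.41, adjusted p = 0.172). Tuba1b is in the G2/M list by which cells were left out, whereas H2afy and Ssrp1 are in neither list. The cut thus removes cells rich in Tuba1b directly, so its lost call cannot be set against the 2 calls that stayed.

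Of 11 tested members of the G1 cyclin and growth list, 2 were higher, where 1.43% of all tested genes were, and the median log2 difference was 0.13. Ran, the GTPase of nuclear transport and spindle assembly, rose by 0.47 and its partner Ranbp1 by 0.56. Both calls were lost without plate 2, without plate 5 and with DESeq2. Myc had 406, 402, 368 and 396 CPM on the low side and 498, 495, 359 and 505 CPM on the high side (0.24, adjusted p = 0.682). Oxidative phosphorylation had 0 calls among 71 tested genes with a median of 0.03, and heat shock chaperones 0 among 14 with 0.13. Other genes that rose outside the lists were the phosphatase Ptpn11, also known as SHP2 (1.40), the spliceosome protein Snrpd1 (0.51), the p53 target Siva1 (0.60), Ppp1r14b (0.86), Mns1 (1.51) and Noc4l (1.70). None of these 6 calls held in each of the fits that left out 1 plate. Noc4l was not called in any of those fits, and Siva1 was called in 2 of 25 alternative fits.

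Apoe, the lipid-carrying apolipoprotein E, was the most stable lower gene. It had 2233, 1322, 1473 and 1506 CPM on the low side of plates 2 to 5, 1562, 1305, 1305 and 1321 CPM in the middle and 1239, 893, 1078 and 777 CPM on the high side. Every high library was below every low one (log2 difference -0.71 ± 0.11, adjusted p = 4.89e-07). It was called in 24 of 25 alternative fits, the exception being the fit without the plate block.

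Of 23 tested HSC genes, 6 were lower in PE high cells, where 0.878% of all tested genes were, and 0 were higher. The median log2 difference was -0.37 (all tested genes -0.02), and 17 values were below 0, as were 1608 of all 3074. Without plate 4 or without plate 5 there were 3 calls. DESeq2 gave 1 call, as did the fit with cycling cells left out and PE ranked within map groups. With PE ranked within side scatter bins there were 0. Pdzk1ip1, also called MAP17, a small membrane protein abundant in dormant HSCs, had 1175, 1024, 899 and 1213 CPM on the low side and 822, 570.3, 575 and 427 CPM on the high side, without overlap (-0.87 ± 0.14, adjusted p = 9.89e-07). Mecom, the Evi1 transcription factor that HSCs need for self-renewal, had 72.5, 194, 339 and 319 CPM on the low side and 92.6, 172, 71.9 and 68.0 CPM on the high side (-1.19 ± 0.32, adjusted p = 0.0159). Its difference sat in plates 4 and 5, and it was not called without plate 4 or without plate 5.

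Vwf, von Willebrand factor, marks platelet-biased HSCs. It had 72.5, 129.7, 147 and 255 CPM on the low side and 57.9, 64.6, 20.5 and 77.7 CPM on the high side (-1.45 ± 0.41, adjusted p = 0.0278), from 45 and 21 UMIs. The groups overlapped through plate 2, and the call was lost without plate 4 or without plate 5. Sult1a1, a sulfotransferase enriched in HSCs, had 41 UMIs on the low side and 9 on the high side (-2.55 ± 0.53, adjusted p = 0.000441), with 0 UMIs on both sides of plate 2.

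The other 2 HSC genes that fell are the interferon-inducible membrane proteins Ifitm1 and Ifitm3, both among the genes that were low in plate 2. Ifitm1 had 3164, 4243 and 3446 CPM on the low side of plates 3 to 5 and 2410, 2454 and 2011 CPM on the high side, and in plate 2 the order turned around at 174 and 266 CPM (-0.61 ± 0.09 over the 4 plates, adjusted p = 4.95e-08). It was called whichever plate was left out, and in 17 of 25 alternative fits in all. The fits that did not call it include DESeq2, cycling cells left out and, below, the rankings within side scatter bins and map groups. Ifitm3 had a log2 difference of -0.38 and was not called without plate 3, 4 or 5. These 2 were the only calls among 15 tested interferon genes (median -0.23), where 0.878% of all tested genes were lower. Irf7, a transcription factor of the pathway, had -0.61 and was not called. Among HSC transcription factors that were not called, the log2 difference was 0.05 for Hlf, 0.06 for Prdm16, -0.33 for Meis1 and -0.39 for Gata2.

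Txnip, an inhibitor of thioredoxin and of glucose uptake that is high in quiescent cells, had 827, 1322, 1473 and 1659 CPM on the low side and 486, 1055, 914 and 1156 CPM on the high side (-0.55 ± 0.12, adjusted p = 0.000942). Within each plate the high side was lower, although the sides overlapped across plates. It was 1 of 3 tested quiescence genes and the only one called, where 0.878% of all tested genes were lower. Of 7 tested glycolysis genes, 2 were lower, beside the same 0.878% of all tested genes. These were Aldoa, aldolase A (-0.55 ± 0.12), and Ldha, lactate dehydrogenase A (-0.45 ± 0.13). Aldoa was not called without plate 5, and Ldha without plate 2, 3 or 5.

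Differences of ribosomal protein genes were small. Of 54 tested, 3 were lower, where 0.878% of all tested genes were, and 0 higher. The median was -0.09 (all tested genes -0.02), with 47 values below 0. Rps14 had a log2 difference of -0.20 ± 0.04, Rps18 -0.19 ± 0.05 and Rpl23 -0.26 ± 0.07, and each lost its call without plate 3 or without plate 5. Summed over the list, ribosomal protein transcripts made up 147237 to 160380 CPM on the high side and 159010 to 167601 CPM on the low side.

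Further lower genes were the autophagy protein Gabarapl1 (-0.95), the lysosomal glucosidase Gaa (-1.08), the lipid droplet protein Plin3 (-1.47), the endocytic scaffold Itsn1 (-0.89), the neuronal scaffold Ppp1r9b (-0.78), the dynein heavy chain Dync1h1 (-0.73), the calpain subunit Capns1 (-0.47), Myct1 (-0.64), Lst1 (-0.93), Cmas (-0.79), Nrgn (-0.43) and the mitochondrial entry Atpase6 (-0.45). For Itsn1, Gaa, Ppp1r9b, Capns1, Dync1h1 and Plin3 all high libraries were below all low libraries. Each of these 12 calls was lost in at least 1 of the fits that left out 1 plate, and those of Capns1 and Plin3 in all 4. A joint entry that includes Uba7 and Ip6k1 was lower by a log2 difference of -0.67 ± 0.14, and its UMIs cannot be assigned to 1 of its genes.

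Transcripts of surface proteins gave no gene that rose with PE. Of 37 entries for surface and related markers of HSCs and early progenitors, 14 passed the filter. Of these 14, 0 were higher, 1 was lower (Vwf, a secreted protein) and the median log2 difference was -0.15. Over all tested genes 1.43% were higher and 0.878% lower. Kit had 711, 272, 309 and 421 CPM on the low side and 509.5, 269, 288 and 495 CPM on the high side (-0.11). The tetraspanin Cd81 was lower in each plate, at 1233, 882, 1149 and 970 CPM against 1007, 689, 842 and 738 CPM, but did not pass (-0.37 ± 0.13, adjusted p = 0.126). Cd34, a sialomucin of early progenitors (0.21 ± 0.27), Cd27 (0.11 ± 0.21), Cd47 (0.01 ± 0.18), Cd9 (0.00 ± 0.23), Cd63 (-0.10 ± 0.20), Esam (-0.14 ± 0.29), Ly6e (-0.15 ± 0.09), Ptprc (-0.34 ± 0.49), Cd164 (-0.38 ± 0.43) and Procr, the endothelial protein C receptor (-0.61 ± 0.37), did not pass either.

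The 23 surface entries that did not pass the filter had at most 28 UMIs on the high side and 26 on the low side. They include genes of the gate itself: Slamf1 (CD150) had 2 UMIs on the high side and 3 on the low side, Cd48 had 0 and 1, and Ly6a (Sca-1) had 9 and 15. Flt3, a receptor of multipotent progenitors, had 26 UMIs in 22 high cells and 7 UMIs in 6 low cells, and Cd44 15 and 6. Without the filter none of the 23 was called (Flt3 1.52, adjusted p = 0.562 by edgeR). With so few UMIs, the lack of a call does not show that these transcripts were equal on the 2 sides. A transcript level is also not the level of the protein that an antibody binds.

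Markers of mature cells outside the erythroid and platelet lineages were sparse on both sides. Mast cell and basophil genes had 0 UMIs on both sides for all 9 entries. Of 18 entries for mature B, T and NK cells, 10 were at 0 on both sides, among them Cd3e and Ms4a1, and the list summed to 587 to 940 CPM on the high side and 742 to 1179 CPM on the low side. Neutrophil, monocyte and macrophage genes summed to 108 to 579 CPM against 134 to 654 CPM, with S100a8 and Ltf at 0, and endothelial and stromal genes to 29.4 to 124 CPM against 12.2 to 133 CPM, with Cdh5 and Lepr at 0. The erythroid list summed to 2682 to 3781 CPM on the high side and 3140 to 3960 CPM on the low side, the myeloid progenitor and granule list to 1874 to 3074 CPM against 2328 to 2726 CPM, and the megakaryocyte list to 2012 to 2354 CPM against 2174 to 2476 CPM. The sparse lists had no call, and neither did the erythroid (6 tested), myeloid progenitor (3), multipotent and lymphoid progenitor (4), MHC class I (10), immediate early (4) or retinoic acid response (6, median -0.23) lists.

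The megakaryocyte list had 1 higher and 1 lower call among 8 tested, beside 1.43% and 0.878% of all tested genes. The higher one was Pf4, platelet factor 4, with 29.0, 90.8, 147 and 153 CPM on the low side and 46.3, 86.1, 318 and 651 CPM on the high side (1.35 ± 0.32, adjusted p = 0.00323). A single high cell of plate 5 held 56 of the 110 high-side UMIs. Without it the pooled high side had 116 CPM in place of 236 CPM, beside 85.2 CPM on the low side. The call was also lost without plate 5.

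Cell-cycle transcripts were also read in each cell, as the percent of its UMIs from the S phase and G2/M lists after thinning each cell to 1000 UMIs, which 222 high, 592 middle and 174 low cells allowed. The lists hold genes called above, among them the tubulins Tuba1b and Tubb5, found in 193 and 151 of the 274 low cells. These 2 had 492 and 359 UMIs on the low side and 1206 and 823 on the high side. How much of the share rests on them was not tested. The share was 1.63%, 1.45%, 1.98% and 2.13% on the high side of plates 2 to 5 and 1.09%, 1.02%, 1.19% and 0.92% on the low side. Every high value was above every low value. Means over plates were 1.79% ± 0.31 (SD, n = 4) on the high side, 1.23% ± 0.12 in the middle and 1.06% ± 0.11 on the low side, and the difference between high and low was 0.74 percentage points ± 0.35. It was above 0 in 4 of 4 plates (exact two-sided sign-flip permutation test, p = 0.125, the smallest that 4 plates allow). Unthinned, the difference was 0.72. The G2/M list contributed 0.48 points of it and the S phase list 0.26.

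The cell-cycle share was highest in the brightest quintile of PE in each plate. From the lowest to the highest quintile of PE the mean share was 1.05%, 1.06%, 1.29%, 1.33% and 1.79%. The last step of the mean was the largest, but in plate 3 the step from the second to the third quintile (0.906% to 1.33%) exceeded the last (1.25% to 1.45%). Of single genes 4, Tuba1b, Top2a, Ssrp1 and the Hist1h2be entry, were called between the middle and the low side (0.13% of tested genes, all higher), and 38 between the high side and the middle (1.24%; 28 higher and 10 lower).

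**Figure D3:**
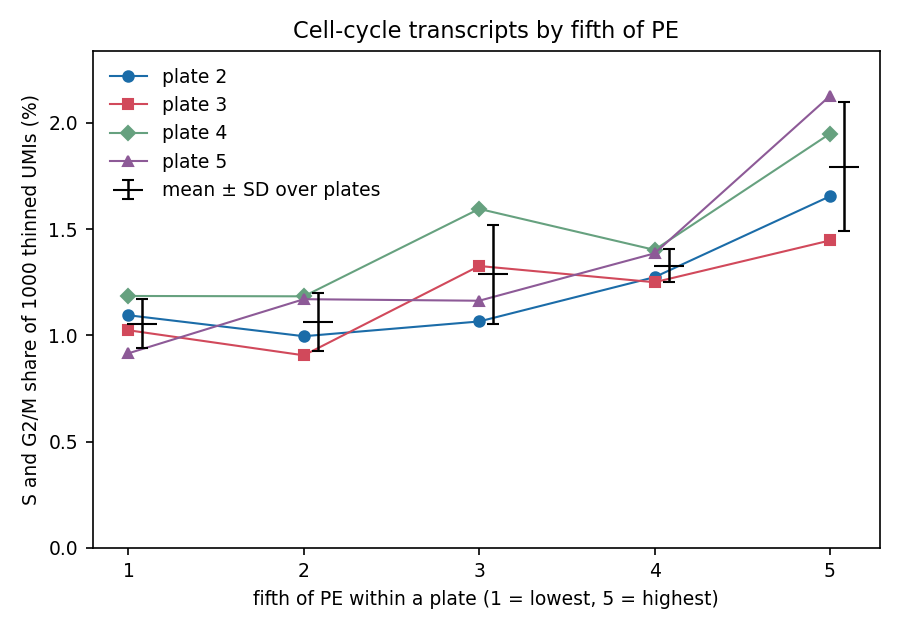
Percent of 1000 thinned UMIs from the S phase and G2/M lists (y axis, starting at 0) in each quintile of PE within a plate (x axis), 1 line per plate, with the mean and SD over plates in black. The highest quintile stands at 1.79% and the lowest at 1.05%, and in each plate the highest quintile has the highest share.

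PE high cells also had more UMIs. Their median cell had 1353, 1498, 1525 and 1464 UMIs in plates 2 to 5, against 1018, 1448, 1073 and 1117 on the low side, a ratio of 1.26 (log2 ratio 0.34 ± 0.20, SD, n = 4; exact sign-flip permutation test, p = 0.125). In plate 3 the sides were nearly equal. With PE ranked within 5 bins of UMIs per cell, 36 genes were called (24 higher, 12 lower), 35 of them among the 71, and the cell-cycle share still differed by 0.56 points.

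The CFP reporter was brighter on the PE high side. On a scale of percentile ranks within a plate, mean CFP was 58.2 ± 4.06 on the high side and 45.6 ± 2.07 on the low side (SD, n = 4), a difference of 12.6 ± 5.99 points that ranged from 4.37 in plate 2 to 17.1 in plate 5 (exact sign-flip permutation test, p = 0.125). With PE ranked within 5 bins of CFP, 29 genes were called, all 29 among the 71.

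The difference in cell-cycle share was larger among cells above their plate's CFP median. Above the median the share was 2.08%, 1.79%, 2.19% and 2.52% on the PE high side and 1.08%, 1.14%, 1.36% and 1.18% on the PE low side, a difference of 0.96 points ± 0.29 (SD, n = 4) and above 0 in 4 of 4 plates. Below the median it was 1.06%, 0.79%, 1.43% and 1.06% against 1.11%, 0.87%, 1.02% and 0.66%, a difference of 0.17 ± 0.27 that was above 0 in 2 of 4 plates (p = 0.5 in the exact sign-flip permutation test). The difference above minus that below the median was 0.79 ± 0.27 points and positive in 4 of 4 plates (exact sign-flip permutation test, p = 0.125, the smallest possible). This split was chosen after the data had been seen, and below the median a plate's PE high side had only 15 to 24 cells deep enough to thin.

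**Figure D4:**
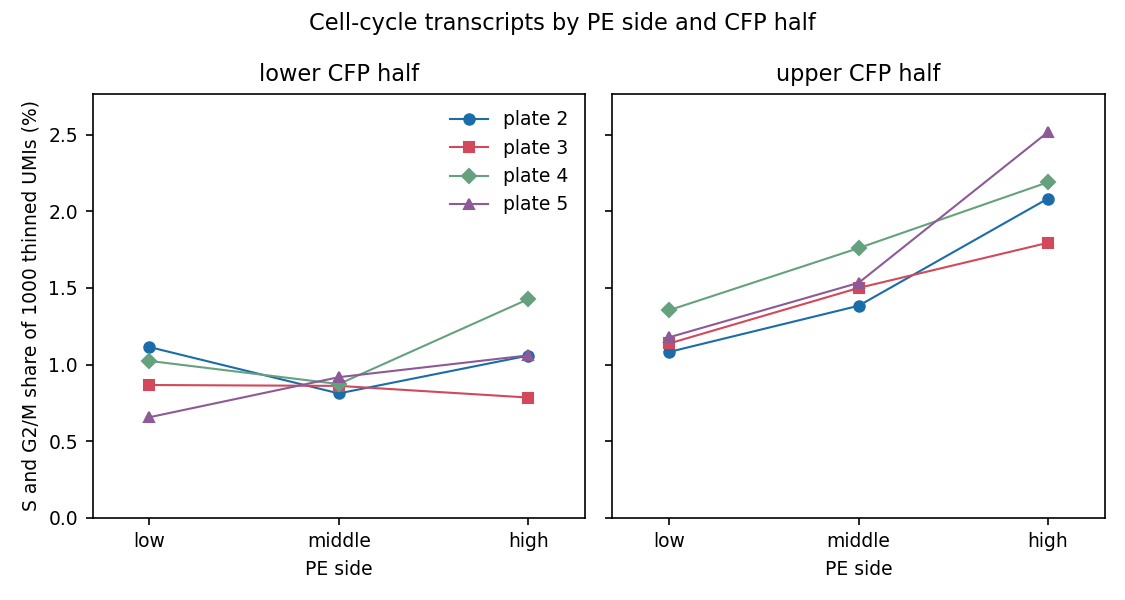
Percent of 1000 thinned UMIs from the S phase and G2/M lists (y axis, starting at 0) on the PE low, middle and high sides (x axis), for cells below (left) and above (right) the CFP median of each plate, 1 line per plate. Above the median the share climbs with PE in each plate, to 1.79% or more on the high side, and below it 2 lines rise from low to high and 2 do not.

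PE moved with several other recorded values of the same cells. Spearman correlations within a plate, given as a description over up to 1373 cells, were 0.39 to 0.42 for side scatter area, 0.31 to 0.43 for forward scatter width, 0.25 to 0.36 for DAPI, 0.16 to 0.37 for PE-Cy7 and 0.22 to 0.27 for PE-Cy5. APC was the only channel that went the other way in each plate (-0.27 to -0.23), and Alexa Fluor 700 stayed near 0 (-0.02 to 0.06). Forward scatter area reached 0.10 to 0.20, and the cell-cycle share 0.18 to 0.27 over 988 cells.

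**Figure D5:**
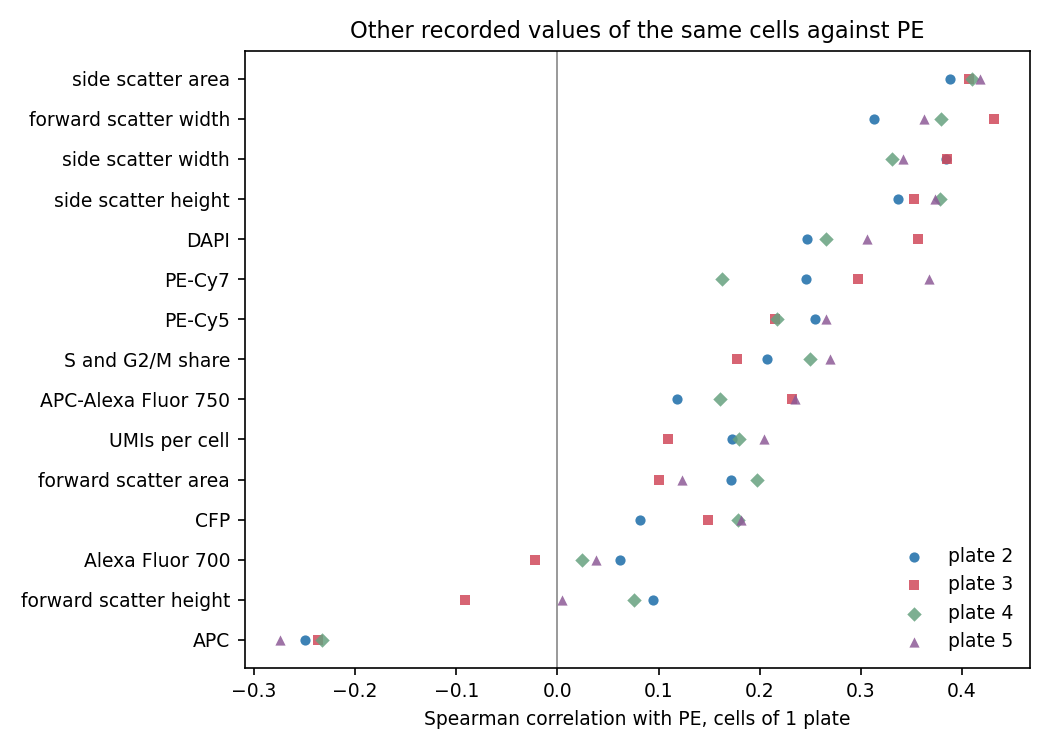
Spearman correlation of PE with the other recorded channels, UMIs per cell and the cell-cycle share (x axis), 1 point per plate and measure. Side scatter and forward scatter width lie at 0.31 or above in each plate, and APC lies below 0 in each plate.

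Because scatter and PE moved together, PE was ranked again within 5 bins of each measure. Within bins of side scatter area 12 genes were called, all among the 71 (7 higher, 5 lower), and the cell-cycle share differed by 0.29 points. Within bins of forward scatter width 3 genes were called, Tuba1b (0.39), H2afy (0.41) and Apoe (-0.71), and the share differed by 0.30 points. Within bins of DAPI 24 genes were called and within bins of PE-Cy7 19. The mean PE percentile rank of the sides was 80.0 points apart at first, 72.2 within side scatter bins and 73.8 within forward scatter width bins. The genes tested numbered 3074 at first, 2774 within side scatter bins and 2614 within forward scatter width bins. Why fewer genes were called was not tested. Within bins of PE-Cy5 there were 43 calls and within bins of APC 53. Over the 25 alternative fits, Apoe and Tuba1b were each called in 24, Hmgb2 and H2afy in 23 and Pdzk1ip1 in 22.

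The record also assigns each cell a map number from 1 to 10, whose meaning is not stated. Group 1, left out by the rule, had 18.6% of its UMIs from globin genes, against 0.0526% in the other cells. PE high cells made up 40.5% of the 42 cells of group 10 (95% Clopper-Pearson interval 25.6 to 56.7), 32.8% of the 183 cells of group 9 (26.0 to 40.1) and 25.6% of the 199 cells of group 8 (19.7 to 32.3). In groups 2 to 5 they made up 13.4% to 15.5%, in group 7 18.1% and in group 6, which has only 32 cells, 28.1% (13.7 to 46.7). PE low cells made up 31.2% of group 6, and its mean cell-cycle share was 1.03%. The intervals pool the cells of all plates and do not cover the spread between plates. High cells outnumbered low cells in 4 of 4 plates in groups 8 and 9, and in 3 of 4 in group 10. Groups 8, 9 and 10 had the highest mean cell-cycle shares, 1.76%, 2.47% and 3.22%, beside 0.70% to 1.03% in groups 2 to 7. When PE was ranked within each map group, 11 genes were called, 9 higher and 2 lower, and the share differed by 0.31 points. These were Tuba1b, Tubb5, Hmgb2, Spc24, Top2a, H2afy, Hist1h2ae, Hist1h4d and the Hist1h2be entry on the higher side, and Apoe and Pdzk1ip1 on the lower.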

How the data were processed

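Members and gene lists were chosen with earlier results of these data known. The authors deposited raw UMI counts, whole numbers for 27297 gene entries in 1536 wells, and index-sort values of 1430 wells. Per the file headers and values, CFP and most dye channels are deposited as log10 of a whole channel number, and PE, PE-Cy7 and DAPI hold other entries too (spreadsheet errors). Per the file headers and values, scatter was deposited as a linear intensity. Channels were used as ranks within a plate. Tools in the submitters' processing notes, which assign none to a step, are bcl2fastq 2.15.0.4, STAR, cutadapt, featureCounts, Bismark 0.19.0 and DESeq2. How reads became UMIs is not stated. The labels list 8 single-cell samples and the table maps wells to none of them, so plates stood in as 4 technical replicates of a pooled collection. They may share animals, p-values cover the spread between plates, and a stricter reading would take 1 sample without a test. Wells that lack a record (106, up to 502 UMIs each) stayed out. Bulk RNA-seq and bisulphite samples were not analysed here. No doublet caller was run.

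UMIs were summed per plate and side and tested with edgeR 4.0.16 in R 4.3.3 (quasi-likelihood F test after filterByExpr and TMM, plate block, 3 sides in 1 fit, threshold 0.05). Residual degrees of freedom numbered 6 and prior ones 154, so small p-values rest mostly on the spread over all genes. The code was tested on simulated data. DESeq2 1.42.0 was an alternative. Since sides are cut within a plate, plates pair them by construction. CPM of a single gene on a side of a plate are scaled by TMM and taken over the tested genes only. CPM summed over a list, pooled over the plates of a side or pooled over a whole plate use all UMIs without TMM. Per-plate log2 differences add 1 CPM. Named genes are the 15 with the smallest p in each direction with 1 sign in 4 plates, all tested surface genes, and called or most abundant members of each list; other called genes, list members that were not called, Flt3, Cd44, Slamf1, Cd48 and Ly6a were named after their values were seen. Some genes that this rule names are not reported here. A fewer-cells and a less-RNA-per-cell difference cannot be told apart in summed UMIs. Intervals cover counting error only.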

Additional observations from a re-analysis of the deposited data

Results flagged for a closer look

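For 6 of 101 results, 1 plate lay far from the other 3 by Dixon's criterion, which chance meets in about 1 in 20 groups. For Sult1a1 it was plate 2, where both sides had 0 UMIs and the log2 difference is 0. In plate 2 Ifitm3 differed by 1.07 where the other plates were negative, and the lysozyme entry of Lyz1 and Lyz2 by -1.04 where they were near 0; both genes were low in that plate. Noc4l differed by 7.35 in plate 2, a value set by the added 1 CPM because the low library was at 0. Myc differed by -0.0355 in plate 4, where the other plates were at 0.29 to 0.35, and Cenph by 0.73 in plate 3, where they were at 1.60 to 1.73.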

How the results depend on the processing

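The number of genes called between PE high and PE low cells (71) depended on the processing. It was 27 with DESeq2 (21 higher, 6 lower; 199 at an unadjusted p under 0.05), 5 with no replicate block (the plates pair the sides; 213 at an unadjusted p under 0.05), and 24 to 65 when each plate was left out, the lowest without plate 5. With 10% of cells per side it was 28, and with cells of at least 1000 UMIs 44. With PE ranked within bins it was 36 for UMIs per cell, 29 for CFP, 12 for side scatter, 11 for map groups, 43 for PE-Cy5, 24 for DAPI, 19 for PE-Cy7 and 3 for forward scatter width, and it was 5 with cycling cells left out, where fewer genes were tested. The bins of PE-Cy5, PE-Cy7, DAPI, APC and forward scatter width were chosen after seeing the data. The cause of these changes was not tested. Of the called genes 4 changed sign, Ran within DAPI bins (-0.0208), Cdca3 within forward scatter width bins (-0.0167), and, with cycling cells left out, Hist1h1b (-0.0602) and Hist1h1c (-0.48). Over all other alternatives of the named genes that were called, 891 values kept their call and direction and 775 kept the direction without the call; among named genes not called, 66 values changed sign and 6 gained a call. Upper quartile scaling (71), no filter on low counts (58), 33% of cells per side (65), map 1 cells kept (68), PE errors counted as lowest (87, of which 44 higher and 43 lower), high and low libraries only (58), forward scatter area bins (55) and APC bins (53) stayed within 1.5 times. The differences in UMIs per cell, CFP rank and cell-cycle share kept their sign in every alternative run, from 0.21 to 0.44 (log2 ratio), 10.3 to 15.3 points and 0.17 to 0.96 points. With 10% or 33% of cells per side, UMIs per cell were higher in 3 of 4 plates. Depth limits genes with few UMIs, since each low library had at most 98748.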

Other observations

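Between the PE high side and the middle, 4 of the 38 genes called were not called between the ends. Vim, the intermediate filament protein vimentin, was higher on the high side (log2 difference 0.47), as was Cggbp1 (0.75). Ftl1, the ferritin light chain, was lower (-0.25). These genes were named after their values were seen.

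The 47 wells with a spreadsheet error for PE had a median of 1093 UMIs, and the 28 of them with at least 1000 UMIs had a mean cell-cycle share of 1.13%, beside 1.06% on the low side and 1.23% in the middle.

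Slamf1, which encodes CD150, had 4.28 CPM on the PE high side, 25.0 CPM in the middle and 8.24 CPM on the low side, from 35 UMIs in all. Ly6a had 19.3, 52.5 and 41.2 CPM from 87 UMIs. Neither gene passed the filter on low counts, and without the filter neither was called between the high and the low side.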
